A study of Mus musculus with 4 samples.

Results

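The 8 genes described here encode matricellular proteins and close relatives of the provisional matrix that fills healing tissue: fibronectin (Fn1), periostin (Postn), tenascin C (Tnc), osteonectin (Sparc), thrombospondins 1, 2 and 3 (Thbs1, Thbs2, Thbs3) and the secreted glycoprotein Cthrc1. They were found by matching gene symbols, and each matched 1 of the 27998 genes counted. The data are 4 single-cell RNA sequencing libraries of mouse hindlimb tissue, taken at day 7. The groups are mice with 2 copies of slie (slie/slie), an allele of Ddr2 that leaves them without the collagen receptor DDR2, and littermate controls. Both received a burn over 30% of the body surface and a cut of the left Achilles tendon. The injured libraries (control injured and slie/slie injured) came from the left limb, and the uninjured ones from the right limb of the same burned mice, so the uninjured limb is not that of an unburned mouse. Each library pooled tissue of 2 mice and each group had 1 library. Differences between groups therefore have no replicate check and no test, and every interval below covers counting error only, at 95%. Age, sex and background strain: not given in the sources used here.

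Matricellular proteins are secreted into the matrix but mostly regulate cells rather than bear load. They bind integrins, collagens, proteases and growth factors, and many are scarce in resting adult tissue and made again at wounds. Fibronectin forms the early fibres on which collagen is laid down, periostin and tenascin C are typical of activated fibroblasts in tendon and skin wounds, and thrombospondin 1 is also made by platelets, macrophages and endothelial cells and can release TGF-beta from its latent form. DDR2, absent in slie/slie mice, is a receptor for fibrillar collagen on fibroblasts.

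By the GENCODE annotation of mm10, all 8 are protein-coding. Fn1 lies at chr1:71585520-71653200 on the minus strand, Postn at chr3:54361109-54391037 (plus), Tnc at chr4:63959785-64047015 (minus) and Sparc at chr11:55394500-55423183 (minus). Thbs1 lies at chr2:118111876-118127133 (plus), Thbs2 at chr17:14665500-14694235 (minus), Thbs3 at chr3:89215180-89226837 (plus) and Cthrc1 at chr15:39076932-39087121 (plus). Thbs3 overlaps Mtx1 on the other strand, and Fn1, Tnc and Thbs1 also overlap a gene on the other strand. Whether counting used the strand is not stated, so reads of such pairs may not be told apart. RefSeq promoters (GRCm38.p6) were matched for 5 of the 8: Postn, Tnc, Sparc, Thbs2 and Thbs3. The 250 bases before the start are printed for Postn and Tnc, with the largest injury ratios below, and for Sparc, with the smallest; capitals mark TATAAA.
Postn (chr3:54360857-54361106, plus strand): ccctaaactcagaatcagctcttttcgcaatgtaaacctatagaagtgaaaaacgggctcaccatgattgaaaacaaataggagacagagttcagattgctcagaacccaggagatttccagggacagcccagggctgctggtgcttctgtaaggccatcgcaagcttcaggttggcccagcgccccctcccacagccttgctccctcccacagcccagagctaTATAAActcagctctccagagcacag
Tnc (chr4:64047016-64047265, minus strand): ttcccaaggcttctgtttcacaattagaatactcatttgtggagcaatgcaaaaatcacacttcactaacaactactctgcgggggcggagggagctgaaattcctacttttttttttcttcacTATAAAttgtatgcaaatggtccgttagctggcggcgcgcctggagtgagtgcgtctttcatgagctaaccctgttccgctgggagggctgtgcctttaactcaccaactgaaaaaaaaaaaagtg
Sparc (chr11:55420081-55420330, minus strand): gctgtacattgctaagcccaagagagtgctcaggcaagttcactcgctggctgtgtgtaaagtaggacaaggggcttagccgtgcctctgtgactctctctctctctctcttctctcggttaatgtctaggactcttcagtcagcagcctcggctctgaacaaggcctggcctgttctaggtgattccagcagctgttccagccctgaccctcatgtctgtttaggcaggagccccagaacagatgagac
The Postn match begins 26 bases before the start and the Tnc match 126 bases before it. The Sparc start lies inside the annotated gene, and its window holds no TATAAA. Searched on both strands over the 300 bases around the start (250 before to 50 after), TATAAA was in 13.6% of 32851 RefSeq promoters. It was found in 1 of the 2 Postn entries, in both Tnc entries and in Thbs2 (as its reverse complement), and not in Sparc or Thbs3. Neither the AP-1 site TGANTCA (in 7.81% of promoters) nor the TEAD site GGAATG (in 14.7%) was found in any of the 7 entries of these genes. A match in these letters is a description of the sequence and not evidence of binding.

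The 4 libraries differ strongly in what they hold. Over all barcodes they had 579790 to 4515174 UMIs (unique molecular identifiers, each 1 counted transcript). After filtering (200 or more genes, mitochondrial share up to 20%), 1241 cells were kept. Control injured kept 751 of its 842 barcodes and control uninjured 60 of 1075, while slie/slie injured kept 246 of 375 and slie/slie uninjured 184 of 289. Hemoglobin took 15.5% to 38.2% of all UMIs, and 1.15% to 10.1% of those in the kept cells. Ddr2 had 116 and 5 UMIs in the injured and uninjured control libraries, and 0 and 2 in those of slie/slie. Of the barcodes, 1 occurred in more than 1 library, and none of the kept cells shared a barcode. Control uninjured stands apart: 991 of its barcodes had under 200 genes, and its kept cells included 5 fibroblast-like cells (8.33%), against 37.2% to 41.3% in the other libraries. Without that library neither the injury comparison in controls nor the uninjured genotype comparison can be made. In sums over a library, fewer cells of a type and less RNA per cell cannot be told apart. Levels are CPM, a gene's UMIs scaled to counts per 1e6 UMIs of the library or cluster; they count 3′ ends and are not scaled by gene length. Called higher or lower means a ratio of 2 or more with at least 20 UMIs over both libraries, after adding 1 count to each sum.

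Over all barcodes, Postn, Tnc, Cthrc1, Thbs1 and Thbs2 were higher in the injured limb in both genotypes, most of all Postn and Tnc. Fn1, Sparc and Thbs3 passed the limit in controls and not in slie/slie. In the kept cells, however, Sparc was under the limit in controls and Fn1 was over it in slie/slie. Whether the genotypes differ in the injury ratios was not tested. In the controls all 8 genes were at least 2-fold higher in the injured than in the uninjured limb, where 35.4% of the 11067 genes tested were. In slie/slie 5 of 8 were, against a background of 9.34% of 9347 genes. None was 2-fold lower in either genotype (backgrounds 6.30% in controls and 14.8% in slie/slie). The median log2 ratio of the 8 was 3.00 in controls, against 0.63 over all tested genes, and 1.47 in slie/slie, against −0.12. With kept cells thinned to 500 UMIs each, 5 of 8 were called in controls.

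Postn, which organises collagen fibrils, was at 43.1 CPM in the control uninjured library and 1371 in the control injured one, and at 99.3 and 947 in the slie/slie pair. Both injured libraries lie far above both uninjured ones, with injury ratios of 30.6 (20.8 to 46.8) in controls and 9.48 (8.02 to 11.3) in slie/slie. Tnc, an adhesion-modulating glycoprotein, was at 13.8, 315, 43.5 and 323 CPM in the same order, with ratios of 20.3 (10.7 to 44.5) and 7.34 (5.69 to 9.61). Its uninjured values rest on single cells: 7 of the 8 Tnc UMIs of control uninjured came from 1 barcode, and 59 of the 67 of slie/slie uninjured from another.

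Cthrc1, a glycoprotein of wound fibroblasts, was at 37.9 CPM uninjured and 315 injured in controls, and at 68.8 and 281 in slie/slie. The injury ratios were 7.93 (5.27 to 12.6) and 4.05 (3.27 to 5.05), and 72 of the 106 UMIs of slie/slie uninjured came from the barcode that held most of that library's Tnc. Fn1 was at 166, 768, 199 and 399 CPM in the same order. Its ratio was 4.59 (3.75 to 5.68) in controls and 2.00 (1.74 to 2.30) in slie/slie, the latter just under the limit for a call before rounding. In the kept cells of slie/slie Fn1 was at 272 CPM uninjured and 579 injured, over the limit. In control uninjured, 1 cell of 3947 UMIs, grouped with fibroblast-like cluster 2 described below, held 36 of 96 Fn1 UMIs, 11 of 25 Postn, 7 of 8 Tnc, 9 of 20 Thbs1 and 7 of 13 Thbs2.

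Among the thrombospondins, Thbs1 was at 34.5 CPM uninjured and 328 injured in controls, and at 56.5 and 188 in slie/slie. The injury ratios were 9.06 (5.91 to 14.7) and 3.31 (2.59 to 4.25). Thbs2, known for limiting vessel growth and matrix metalloproteinase activity, was at 22.4, 195, 46.1 and 108 CPM, ratios of 8.07 (4.78 to 14.8) and 2.32 (1.75 to 3.11). Thbs3, a pentameric member of the family, was the scarcest gene at 5.17, 22.2, 14.3 and 20.1 CPM. Its control ratio of 3.24 (1.23 to 12.1) sets 100 UMIs against 3 and turned to log2 −0.64 when the kept cells were weighted equally, and its slie/slie ratio was 1.39 (0.78 to 2.50).

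Sparc, a collagen-binding protein of the matrix, was the most counted of the 8. It was at 1466 CPM uninjured and 3984 injured in controls, and at 4914 and 3134 in slie/slie. It was 2.71-fold (2.53 to 2.91) higher after injury in controls and 1.57-fold (1.51 to 1.63) lower in slie/slie. The highest and the lowest of the 4 values are both uninjured libraries. In the kept cells of controls Sparc was at 2371 CPM uninjured and 4432 injured, under the limit for a call. Over all barcodes without hemoglobin genes it was at 2374 and 4712 CPM in controls, also under it.

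**Figure D1:**
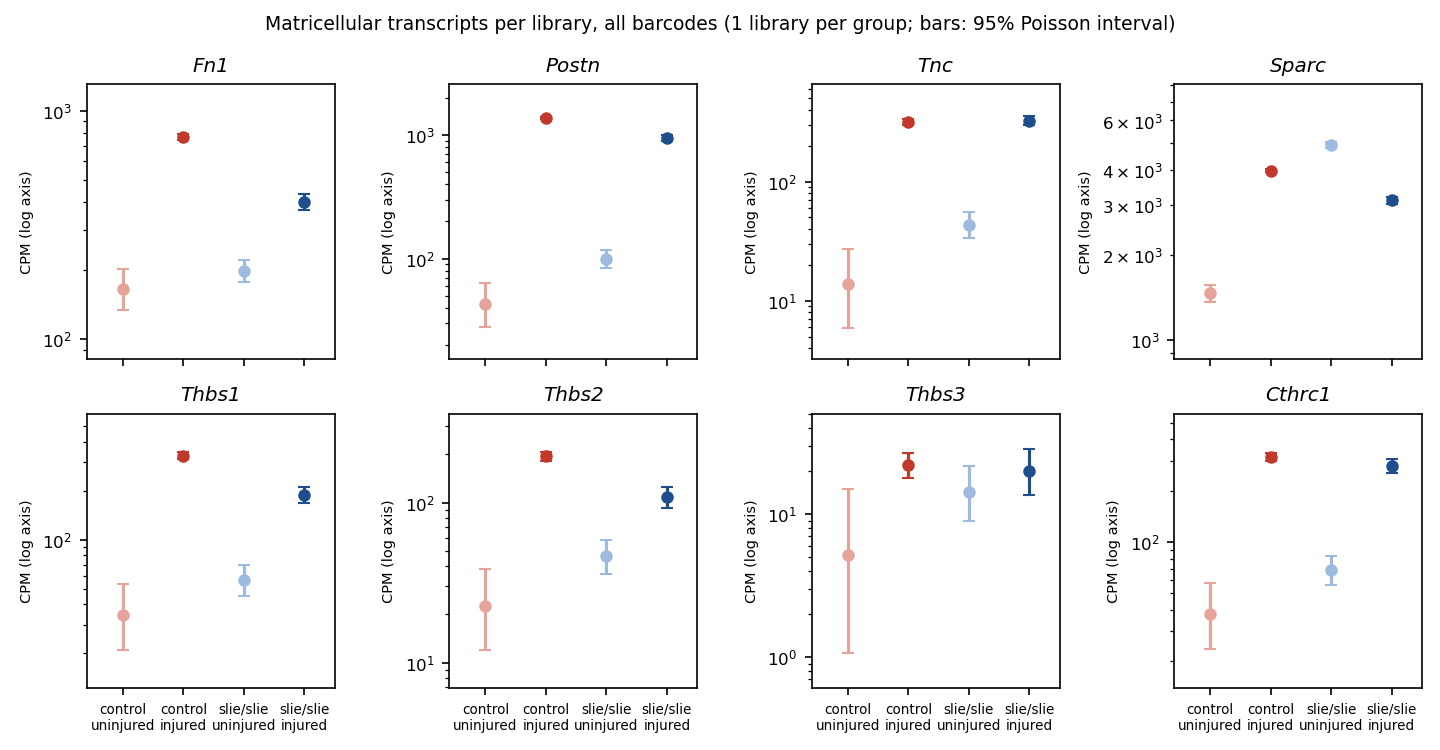
Level of each of the 8 genes (CPM, log axis) in the 4 libraries over all barcodes, 1 point per library with its 95% Poisson interval. For 7 genes both injured libraries lie above both uninjured ones, and for Sparc slie/slie uninjured is the highest at 4914 CPM and control uninjured the lowest at 1466.

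Between genotypes in the injured limb the differences were smaller than 2-fold for all 8 genes, so none was called higher (background 2.48% of 11344 genes) or lower (11.6%). Fn1 was 1.92-fold (1.76 to 2.10) lower in slie/slie injured than in control injured, Thbs2 1.80-fold (1.52 to 2.14) lower, Thbs1 1.74-fold (1.53 to 1.98) lower and Postn 1.45-fold (1.37 to 1.53) lower. Sparc was 1.27-fold (1.23 to 1.31) lower. Tnc had a ratio of 1.03 (0.93 to 1.14), and Cthrc1 and Thbs3 had ratios of 0.89 (0.80 to 1.00) and 0.93 (0.60 to 1.40). The median log2 ratio of the 8 was −0.44, against −0.34 over all tested genes, and hemoglobin took 33.3% of the UMIs in slie/slie injured against 15.5% in control injured. In the kept cells, where it took 5.06% and 6.09%, Postn was at 1353 CPM in slie/slie and 1519 in control, and Tnc at 448 and 349. There the direction turned for Sparc (4568 and 4432 CPM), Cthrc1 (415 and 349) and Thbs3 (29.7 and 24.5), and stayed for Fn1 (579 and 854), Thbs1 (273 and 365) and Thbs2 (156 and 215). Single barcodes also bear on the count: without the 3 deepest barcodes of each library 3 of 8 genes were at least 2-fold lower in slie/slie, at log2 −1.23 for Fn1, −1.17 for Cthrc1 and −1.03 for Thbs2.

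In the uninjured limb 4 of 8 genes were called higher in slie/slie than in control (background 18.8% of 7815 genes) and none lower (2.55%). They were Sparc at 3.35-fold (3.12 to 3.60), Tnc at 2.84-fold (1.41 to 6.49), Postn at 2.23-fold (1.47 to 3.52) and Thbs3 at 2.16-fold (0.74 to 8.61, 22 UMIs against 3). The Sparc difference rests on 7568 UMIs against 850, and the others on at most 153 against 25. The count was 2 in the kept cells and 0 with those cells weighted equally or thinned. Without the barcode richest in the gene in each library, a comparison chosen after seeing the data, the Tnc ratio cannot be read, since 8 UMIs are left in slie/slie and 1 in control. These libraries differ in fibroblast-like cells (76 of 184 kept cells against 5 of 60), and the part of that difference in the ratios was not tested.

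**Figure D2:**
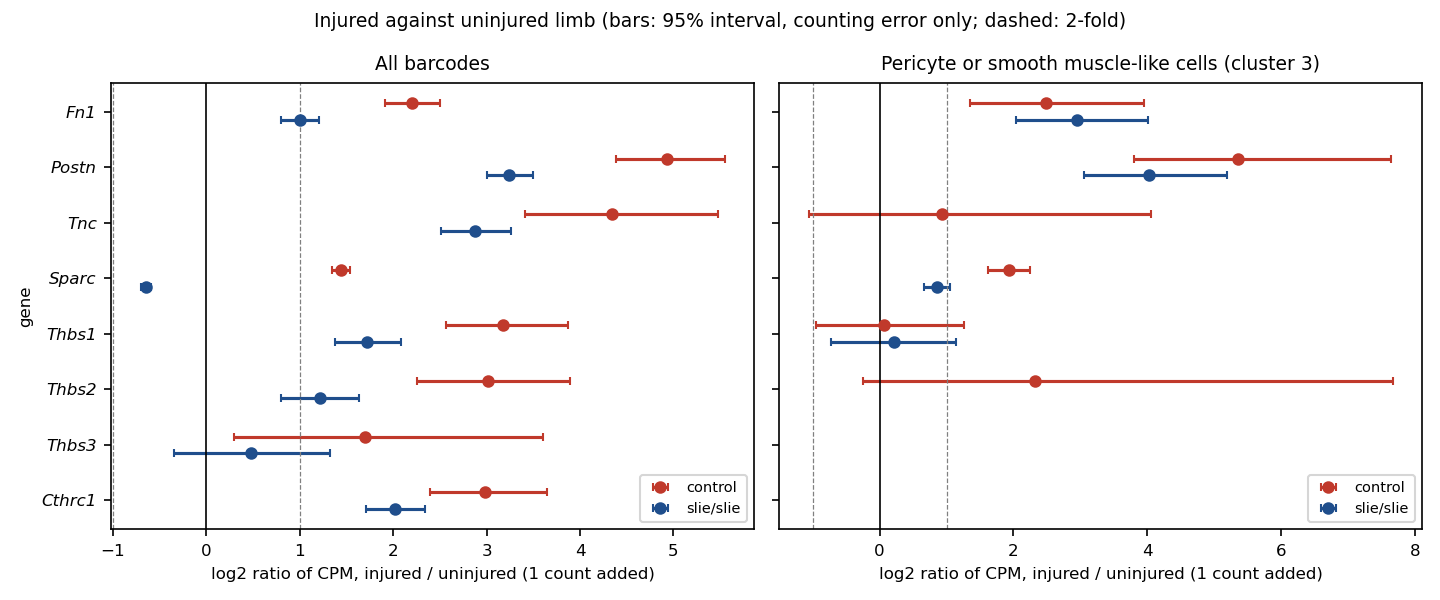
Log2 ratio of CPM between injured and uninjured limbs for each gene, in controls and slie/slie, over all barcodes and within the pericyte or smooth muscle-like cluster, with 95% counting intervals; genes under 20 UMIs are not drawn. Over all barcodes Postn has the largest ratio in both genotypes, and Sparc is the gene with opposite signs, at 1.44 and −0.65.

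The cells that carry these transcripts were found by clustering the kept cells without the 8 genes themselves and naming clusters from marker genes. In control injured, fibroblast-like clusters held 35.0% of all UMIs but 96.7% of Cthrc1, 95.7% of Tnc, 94.0% of Thbs2, 87.9% of Thbs3 and 83.8% of Postn. Fn1, Sparc and Thbs1 were shared more widely. Fibroblast-like cells held 70.2% of Fn1. Monocyte or macrophage-like cells held another 14.0%, below their 19.0% of all UMIs. Fibroblast-like cells held 66.5% of Sparc, with 19.5% in 26 endothelial-like cells, and 59.4% of Thbs1, with 24.8% in monocyte or macrophage-like cells. In slie/slie injured the fibroblast-like share was 98.8% for Cthrc1, 92.3% for Tnc, 87.1% for Postn and 83.2% for Fn1. Thbs1 was again divided: 38.4% lay in fibroblast-like cells and 34.4% in neutrophil-like cells, which held 3.33% of it in control injured.

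**Figure D3:**
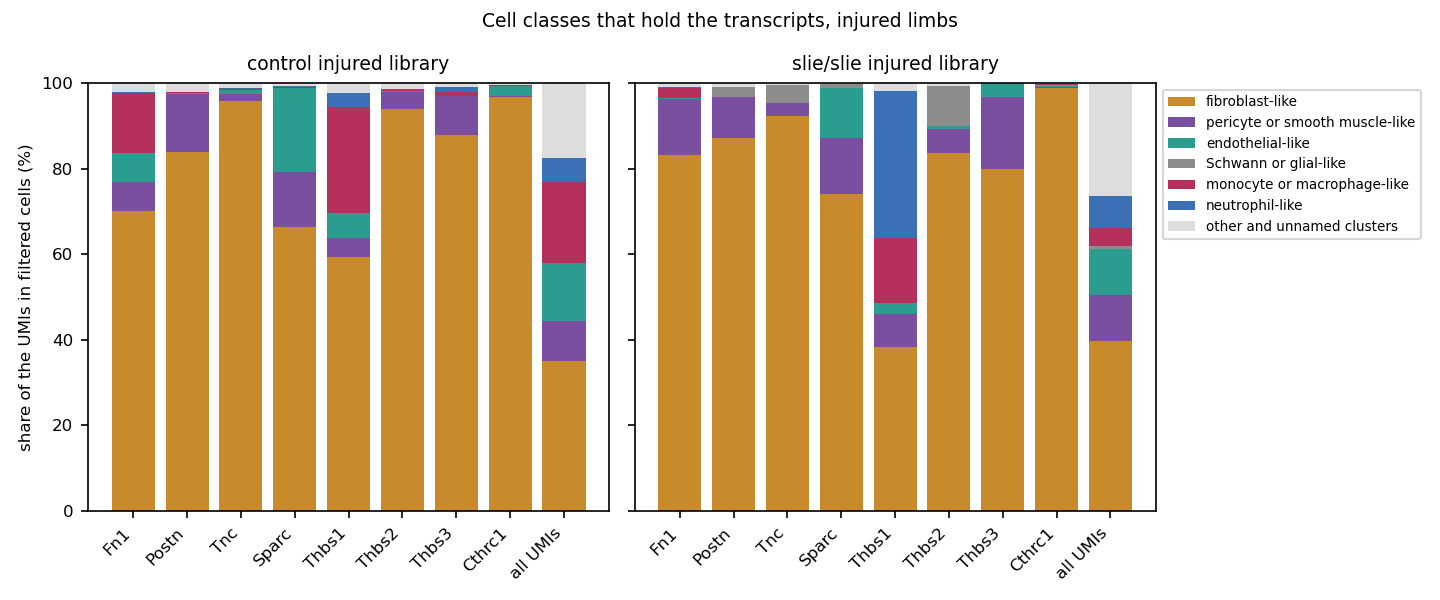
Share of each gene's UMIs in kept cells (%) by cell class, in both injured libraries, with the share of all UMIs as the last bar. Fibroblast-like cells hold most of each gene in control injured, and neutrophil-like cells hold 34.4% of Thbs1 in slie/slie injured, against 3.33% in control injured.

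Across 31 pairs of a cluster and a library with at least 10 cells, Sparc reached 100 CPM in 22, Thbs1 in 18, Fn1 in 16, Postn in 11, Cthrc1 in 9, Tnc and Thbs2 in 8 each and Thbs3 in none. Sparc was thus broad, also in uninjured Schwann or glial-like cells at 5252 CPM (control) and 4892 (slie/slie), where Fn1, Tnc, Thbs1 and Cthrc1 had 0 to 3 UMIs. Tnc and Thbs2 were narrow and had no UMI in 11 and 14 of the 31 pairs.

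Fibroblast-like cells formed several clusters, and these genes varied between them. Cluster 2, led by Col11a1, Sfrp2, Has2 and Tnfaip6, held 94 control injured and 18 slie/slie injured cells. It had the highest levels of Postn, Tnc, Thbs2 and Thbs3 of any named cluster. Sparc was highest in its slie/slie injured cells, where 1109 of 1996 Sparc UMIs came from 1 cell. In its control injured cells Sparc was lower than in the slie/slie uninjured cells of cluster 7, described below. In control injured, cluster 2 had 5075 CPM of Postn, 9956 of Sparc, 2409 of Fn1 and 1284 of Tnc. It also had 1095 of Cthrc1, 907 of Thbs1, 772 of Thbs2 and 81.7 of Thbs3. Its cells spread widely: per 10000 UMIs of a cell, Postn had a median of 48.4 and a highest value of 192, and Tnc 9.06 and 83.4, with cells at 0 for each. Cluster 0 (118 control injured cells, led by H19 and Sox9, median mitochondrial share 0.12%) and cluster 6 (66 control injured cells, led by Crabp1, Prg4 and cell cycle genes) had 1242 and 1626 CPM of Postn and 226 and 609 of Tnc. In 120 of the 183 cells of cluster 0 the mitochondrial share was under 0.5%.

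Cluster 7, 66 cells of slie/slie uninjured led by Clec3b, Gsn and Apod, had a different mix. Sparc, at 11244 CPM (10945 to 11549), lay between the 9956 of control and the 11355 of slie/slie cells in cluster 2, while Postn was at 189 CPM, Thbs2 at 84.0, Cthrc1 at 37.8 and Thbs1 at 14.7. Tnc had 0 UMIs in the 66 cells, and the 3 counts that a count of 0 allows would be 4.55% of cells with a UMI. Fn1 was at 460 CPM. Of its 90 Postn UMIs 58.9% came from 1 cell.

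The genes were also counted together per cell after each cell was thinned to 500 UMIs, so that depth was equal. A cluster 2 cell had a median of 4 of the 8 genes in both genotypes, and 4 or more in 58.5% of 94 control and 52.9% of 17 slie/slie cells. Cluster 7 cells had a median of 1, and none of 66 had 4 or more. In clusters 0 and 6 of control injured 11.9% and 12.1% of cells had 4 or more.

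**Figure D4:**
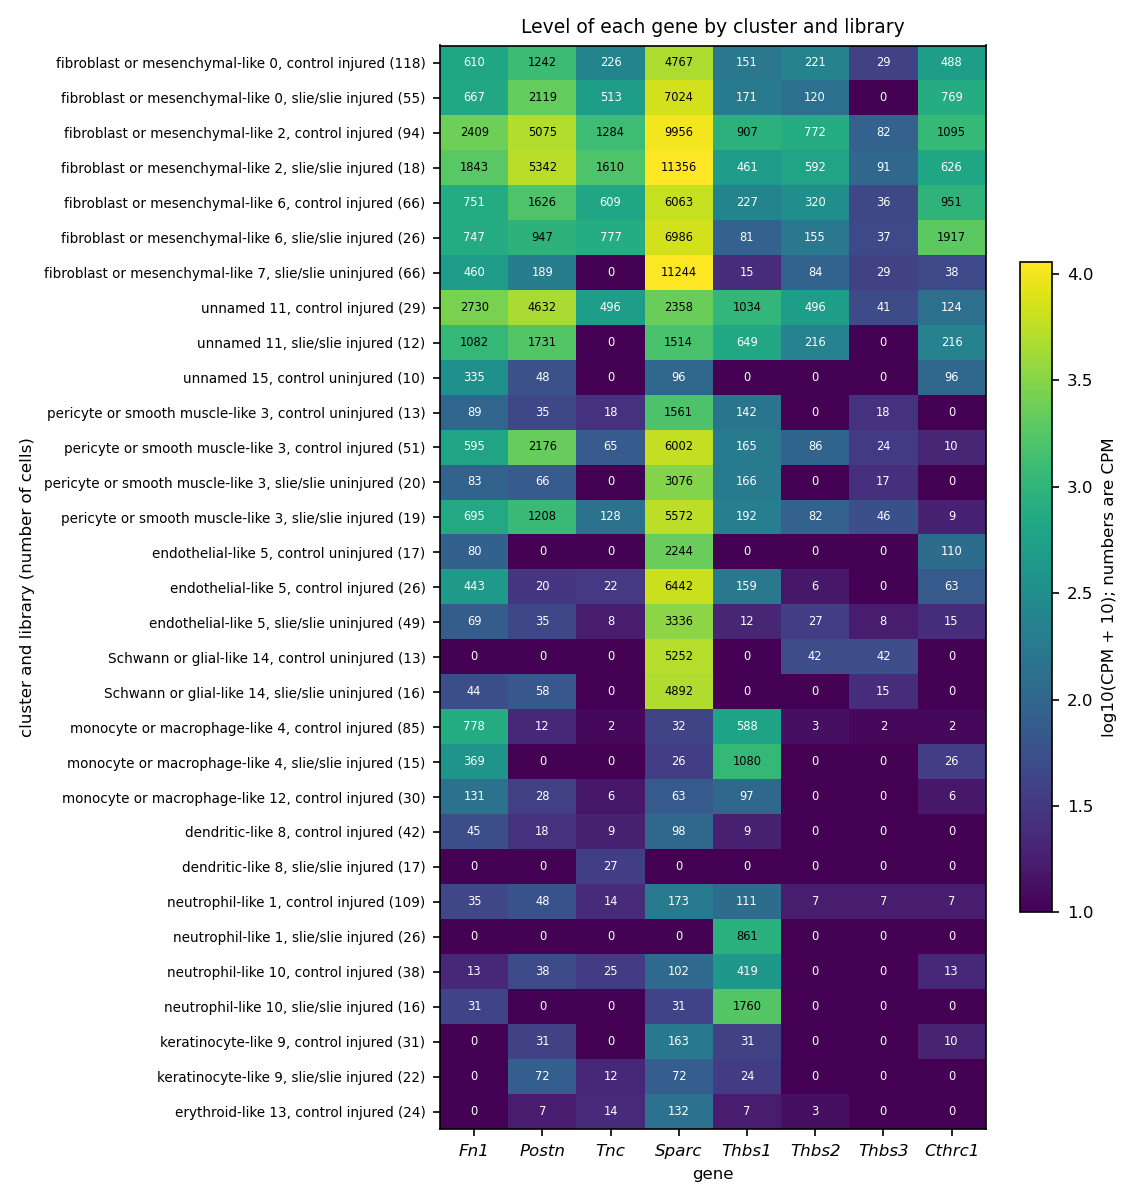
Level of each gene (CPM, printed in each cell; colour on a log10 scale after adding 10) in 31 pairs of a cluster and a library, with the number of cells. Sparc stays high in connective tissue, endothelial-like and Schwann or glial-like cells. Tnc is high in fibroblast-like cells of injured limbs and at 0 in cluster 7. Thbs1 is the highest gene in neutrophil-like cells, except in control cells of cluster 1, where Sparc is at 173 CPM against 111. Both Fn1 and Thbs1 are high in monocyte or macrophage-like cluster 4. Cluster 12, of the same class, held 0.67% of Fn1 and 1.15% of Thbs1 in kept control injured cells, against 4.36% of all UMIs.

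Within the fibroblast-like clusters few of the 8 genes differed by 2-fold between genotypes: none in cluster 2, Tnc in cluster 0, and Cthrc1 and Thbs1 in cluster 6. In cluster 2, 0 of 8 genes were called (backgrounds 5.12% higher and 7.97% lower of 6151 genes). Thbs1 came nearest, at 907 CPM in control and 461 in slie/slie injured, 1.95-fold (1.55 to 2.47) lower, and Cthrc1 was 1.74-fold (1.42 to 2.13) lower at 626 CPM. Fn1 and Thbs2 were 1.30-fold (1.16 to 1.47) and 1.29-fold (1.05 to 1.61) lower, Postn had a ratio of 1.05 (0.98 to 1.13), and Tnc was 1.26-fold (1.10 to 1.43) higher at 1610 CPM. Of the slie/slie cluster 2 UMIs 43.7% came from 1 cell of 76827 UMIs, which held 55.6% of the cluster's Sparc and 67.3% of its Cthrc1. With every cell weighted equally the log2 ratio was −1.16 for Cthrc1 and −0.97 for Thbs1, and for Tnc it was 1.17. Thbs1 passed 2-fold lower when clusters were cut finer or coarser, at log2 −1.42 and −1.14. After thinning, Tnc was found in 41.5% (31.4 to 52.1, exact binomial) of 94 control cells and 76.5% (50.1 to 93.2) of 17 slie/slie cells; unthinned, it was found in 83 of 94 and 16 of 18.

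In cluster 0, Tnc was called higher in slie/slie injured, 1 of 7 genes tested (background 6.20% of 1710 genes; lower 0 of 7, background 6.78%). It was at 513 CPM against 226, 2.28-fold (1.38 to 3.74) higher, but 50.0% of the 30 UMIs were in 1 cell, and the log2 ratio went from 1.19 to 0.39 without the richest cell of each library. Postn was 1.71-fold (1.36 to 2.14) higher, Cthrc1 1.59-fold (1.09 to 2.31) and Sparc 1.48-fold (1.31 to 1.66). In cluster 6, Cthrc1 was called higher and Thbs1 lower, each 1 of 7 genes tested (backgrounds 5.19% and 11.4% of 3604 genes). Cthrc1 was at 1917 CPM against 951, 2.02-fold (1.71 to 2.38), with 66.4% of its slie/slie UMIs in 1 cell. Its log2 ratio was −0.27 without the 3 deepest cells of each library. That 1 cell had 74520 of the 135121 UMIs of slie/slie cluster 6, so it weighs on every level there. It held 605 of 944 Sparc, 78 of 101 Fn1 and 1 of 11 Thbs1 UMIs. Thbs1 was at 81.4 CPM against 227, 2.58-fold (1.40 to 5.20) lower on 11 UMIs against 83. Tnc had a ratio above 1 in all of these clusters, at 1.28 (1.01 to 1.62) in cluster 6. There its log2 ratio went from 0.36 to 0.024 without the richest cell of each library.

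Pericyte or smooth muscle-like cells (cluster 3, led by Myh11, Rgs5 and Notch3) were present in all 4 libraries, with 13 to 51 cells, so injured and uninjured limbs were compared within them in both genotypes. Their own 11 pericyte markers summed to 60950 CPM in uninjured and 17070 in injured control cells, and to 34582 and 30403 in slie/slie; their part in the values below was not tested. Fn1 and Postn were called higher after injury in both genotypes. Sparc was called higher in controls and was under the limit in slie/slie. In controls 4 of 6 genes were called higher (background 20.5% of 3700 genes), or 3 of 6 with Thbs2, which had no UMI in uninjured cells, taken at its lower bound. In slie/slie 2 of 4 were (12.6% of 1974 genes). Postn was at 35.5 CPM uninjured and 2176 injured in controls, and at 66.3 and 1208 in slie/slie, ratios of 40.9 (14.0 to 199, 833 UMIs against 2) and 16.3 (8.34 to 36.4). Fn1 was at 88.7, 595, 82.9 and 695 CPM, ratios of 5.62 (2.54 to 15.5) and 7.72 (4.09 to 16.1). Sparc was at 1561, 6002, 3076 and 5572 CPM, ratios of 3.80 (3.08 to 4.75) and 1.81 (1.59 to 2.06). The slie/slie ratio of Sparc, log2 0.86, passed the limit under some alternatives. It was 1.03 without the richest cell of each library, 1.06 with cells weighted equally and 1.44 at 500 UMIs per cell. Without hemoglobin genes it stayed under the limit, at 0.855. Thbs2 had 33 UMIs in injured and 0 in uninjured control cells, at least 1.62-fold higher against 3 counts, though at 500 UMIs per cell no Thbs2 was left in either. At that depth the log2 injury ratio of Fn1 was 0.69 in controls, against 2.49 unthinned, and 3.63 in slie/slie, and that of Postn was 4.12 and 3.32.

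Thbs1 did not follow them there. It was at 142 CPM uninjured and 165 injured in controls, and at 166 and 192 in slie/slie, injury ratios of 1.05 (0.52 to 2.39) and 1.16 (0.61 to 2.21). Between genotypes in the injured limb Tnc was called higher in slie/slie, 1 of 6 genes (background 5.48% of 4035 genes), at 2.02-fold (1.00 to 3.96) on 14 UMIs against 25, and Postn was 1.79-fold (1.49 to 2.17) lower. Fibroblast markers moved with these values: the 12 markers summed to 1508 CPM in uninjured control cells (9 with a UMI, and Col5a1, Pdgfra and Pdpn at 0) and to 12810 in injured ones (11, Mfap5 at 0). In slie/slie they summed to 1103 (10, Pdgfra and Pdpn at 0) and 14126 (10, Dpt and Pdpn at 0). Their part in the higher Postn and Fn1 was not tested.

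Endothelial-like cells (cluster 5, led by Cdh5, Pecam1 and Plvap) could be compared between 26 control injured and 17 control uninjured cells. There 3 of 4 genes were called higher after injury (background 14.3% of 4786 genes). Sparc was at 6442 CPM against 2244, 2.86-fold (2.50 to 3.28), and Fn1 at 443 against 79.8, 4.95-fold (2.57 to 11.0). Thbs1 had 86 UMIs in the injured and 0 in the uninjured cells, at least 5.30-fold higher against 3 counts. In the injured cells the same 1 cell, of 46606 UMIs, held 56.2% of the Fn1 UMIs and 58.1% of those of Thbs1. The log2 ratio of Fn1 went from 2.31 to 1.68 without the richest cell of each library. The median depth was 17633 UMIs per injured and 1635 per uninjured cell; at 500 UMIs per cell Thbs1 was found in 3 of 26 and 0 of 16, and the log2 ratio of Sparc was 0.81, under the limit for a call. In 49 slie/slie uninjured cells Fn1 was at 69.5 CPM, Sparc at 3336 and Thbs1 at 11.6, and slie/slie injured had 5 cells, too few to compare. The 12 fibroblast markers summed to 179 CPM in control injured, 239 in control uninjured and 1151 in slie/slie uninjured. Their part in the values above was not tested. Of 6 platelet markers Itga2b alone had UMIs in the control cells, 12 injured and 1 uninjured.

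In neutrophil-like cells of the injured limbs Thbs1 had the most UMIs of the 8 genes, except in control cells of cluster 1. There Sparc had 25 UMIs against 16 of Thbs1. Thbs1 was higher in slie/slie in both neutrophil-like clusters. In cluster 1 (led by Cxcr2, Retnlg and S100a8) it was at 111 CPM (63.4 to 180) in 109 control cells and 861 (609 to 1182) in 26 slie/slie cells, 7.50-fold (4.15 to 14.1) higher, where 8.18% of 1344 genes were called higher. In cluster 10 (led by Ccl4, Cxcl2 and Tnf) it was at 419 CPM (288 to 588) in 38 control and 1760 (1333 to 2281) in 16 slie/slie cells, 4.15-fold (2.67 to 6.54) higher, with a background of 10.5% of 645 genes. Of the cluster 1 UMIs 56.2% in control and 28.9% in slie/slie came from 1 cell, and without the richest cell of each library the log2 ratio was 3.56 there and 2.01 in cluster 10. At 500 UMIs per cell, Thbs1 was found in 4.59% (1.51 to 10.4) of control and 26.9% (11.6 to 47.8) of slie/slie cells of cluster 1, and in 21.1% (9.55 to 37.3) and 43.8% (19.8 to 70.1) in cluster 10; the unthinned shares were 7.34%, 30.8%, 31.6% and 62.5%. For comparison, Thbs1 in keratinocyte-like cells of the injured limb was at 30.6 CPM (control) and 23.9 (slie/slie), and in 24 erythroid-like control cells at 6.96.

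Markers of cells known to make Thbs1 were looked at beside it. Of the 6 platelet markers, Ppbp, Itga2b, Gp9, Gp1bb and Treml1 had no UMI in any of these neutrophil-like cells, and Pf4 had 0 to 2 UMIs per cluster and library. The 12 fibroblast markers summed to 831 CPM in control and 227 in slie/slie cells of cluster 1, and to 762 and 309 in cluster 10. They were lower in slie/slie, where Thbs1 was higher, and their part in the Thbs1 values was not tested. Sparc had 25 UMIs in control and 0 in slie/slie cells of cluster 1, and no other member reached 20 UMIs over both libraries in either cluster. In monocyte or macrophage-like cells of cluster 4 (85 control and 15 slie/slie cells) Thbs1 was at 588 and 1080 CPM, 1.87-fold (1.33 to 2.59) higher in slie/slie, with 51.2% of the slie/slie UMIs in 1 cell and a log2 ratio of 0.24, against 0.91, without the richest cell of each library. The 10 neutrophil markers moved with it, summing to 3067 CPM in control (8 with a UMI, Ly6g and G0s2 at 0) and 10718 in slie/slie (6, with Retnlg and Mmp9 also at 0); their part in the Thbs1 difference was not tested. Fn1, also a macrophage product, was there at 778 and 369 CPM, 1.97-fold (1.18 to 3.55) lower on 14 UMIs against 460, but at 500 UMIs per cell its log2 ratio was 0.24, against −0.98. In fibroblast-like cluster 2 Thbs1 was lower in slie/slie, as given above; whether the differences in these clusters differ from each other was not tested.

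**Figure D5:**
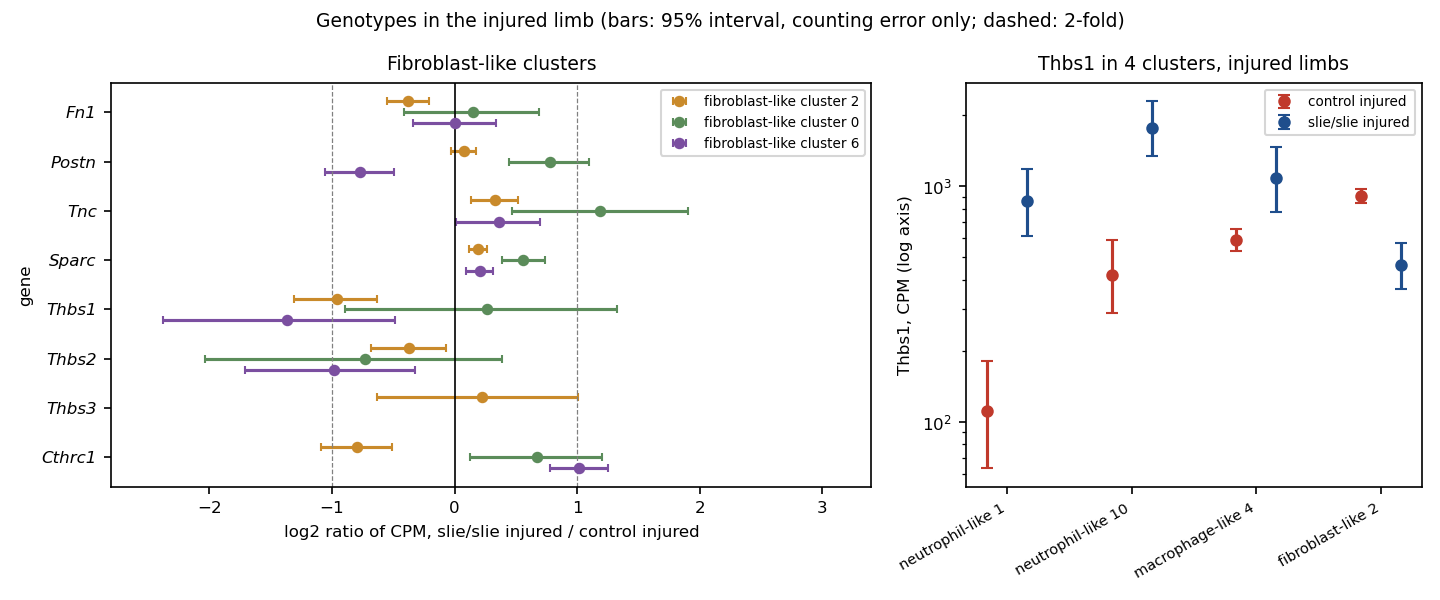
Left, log2 ratio of CPM between slie/slie injured and control injured for each gene in fibroblast-like clusters 0, 2 and 6, with 95% counting intervals. Right, Thbs1 level (CPM, log axis) in 4 clusters of the injured limbs with 95% Poisson intervals: it is higher in slie/slie in the neutrophil-like clusters (861 against 111 and 1760 against 419) and lower in fibroblast-like cluster 2 (461 against 907).

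The genes were compared with all others by the correlation of log2(CPM + 10) over the 31 pairs of cluster and library, among 4626 genes with at least 200 UMIs. The pairs share libraries, depth and neighbouring cell types, so these are descriptions. The closest genes to Postn were Loxl2 (r = 0.95), Loxl1 (0.93) and Col1a1 (0.93), 2 lysyl oxidases and a chain of type I collagen. Thbs2 was closest to Col5a1, Igsf10 and Mmp2 (0.94, 0.94 and 0.93), and Tnc to Cxcl5, Ltbp2 and Srpx2 (0.90, 0.90 and 0.89). Fn1 was closest to Mmp14 (0.91), Vcan (0.88) and Rrbp1 (0.84), Sparc to the collagen chaperone Serpinh1 (0.92), Ppic (0.91) and Mxra8 (0.89), Cthrc1 to Fibin (0.88), Lrrc15 (0.87) and Crabp1 (0.84), and Thbs3 to Casc4 (0.89), Sod3 (0.84) and Chpf (0.83). Thbs1 stood apart: its closest genes were Hif1a (0.85), Nrbf2 (0.73) and Slpi (0.71), and its correlation with Sparc was −0.03, while Postn and Thbs2 had 0.90.

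Other genes of the same system gave the setting. Among 20 further matricellular genes tested in the controls, 9 were called higher and 6 lower after injury over all barcodes (backgrounds 35.4% and 6.30% of all genes). Spp1, encoding osteopontin, was 15.4-fold (11.7 to 20.7) higher, Fbln2, encoding fibulin 2, was 5.86-fold (4.20 to 8.45) higher, and Mgp, an inhibitor of calcification, and Sparcl1, a relative of Sparc, were 2.20-fold (1.98 to 2.43) and 3.33-fold (2.99 to 3.71) lower. In slie/slie 6 of 19 were higher and 7 lower (backgrounds 9.34% and 14.8%), with Spp1 4.02-fold (3.57 to 4.54) higher and Mgp 4.44-fold (4.01 to 4.92) lower. All 13 collagens, crosslinking enzymes and proteases tested were higher after injury in controls and 6 of 13 in slie/slie, with none lower, beside 35.4% and 9.34% higher over all genes. Col1a1 was 6.07-fold (5.66 to 6.52) and 1.47-fold (1.43 to 1.52) higher. Of the receptors, 12 of 18 were higher and 1 lower in controls, and 2 of 16 higher and 2 lower in slie/slie, where the share of all genes was 9.34% higher and 14.8% lower. Itgb1, the common beta chain of fibronectin and tenascin receptors, was 2.52-fold (2.16 to 2.95) higher in controls and at a ratio of 1.02 (0.93 to 1.12) in slie/slie. Between genotypes in the injured limb, 1 of 19 matricellular genes was higher and 4 lower, 1 of 18 receptors higher and 5 lower, and 0 of 13 partners higher and 2 lower, beside the backgrounds of 2.48% and 11.6% given above. Lrp1, a clearance receptor that binds thrombospondins, was 2.01-fold (1.73 to 2.35) lower in slie/slie injured. In pericyte or smooth muscle-like cells 11 of 12 partners were higher after injury in controls (background 20.5%) and 6 of 6 in slie/slie (12.6%). The fibroblast marker sums given above for these cells moved with them, from 1508 to 12810 CPM and from 1103 to 14126, and their part was not tested. Col1a1, Col1a2, Col3a1 and Col5a1 are both partners and fibroblast markers, so these are not separate readings.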

How the data were processed

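Single-cell RNA was counted in 4 libraries, 1 per group, each of tissue pooled from 2 mice and digested for 20 minutes, per the labels. The deposited values are raw UMI counts per gene and barcode from 3′ libraries, made by the authors with Cell Ranger 5.0.1 on mm10, per the file headers and the submitters' processing notes. Barcode-calling settings and annotation: not given in the sources used here. Library by library, the smallest barcode had 48 UMIs in control uninjured and 500 in control injured, so barcode limits differed.

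Kept cells had 200 genes or more and a mitochondrial share up to 20%. They were scaled to 10000 counts, log transformed and clustered (2000 variable genes, 30 components, 15 neighbours, Leiden resolution 1, no integration) with the 8 genes left out, since Tnc and Cthrc1 would otherwise lead clusters. Marker genes of 20 cell types gave the cluster names, needing at least 3 detected in 20% of cells at 2 times the median over clusters. Fibroblast-like clusters are compared by number, because clusters 0 and 6 have a marker of another type and none of their own among their 10 leading genes. Cluster 11 (nuclear RNAs, shallow) and cluster 15 stayed unnamed. Doublets were scored with Scrublet and kept: of the slie/slie cells it called 1 injured and 5 uninjured, and 0 of the control injured ones. In control uninjured it marked 43 of 60 cells, and those calls were not used.

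UMIs were summed per library or cluster (at least 10 cells), 1 count was added, and ratios of CPM have exact conditional binomial intervals. CPM has exact Poisson and shares exact binomial (Clopper-Pearson) intervals, at 95%, and p-values were not formed. The scripts were tested on simulated data. A group at 0 is compared at 3 counts. Named genes are the 8, the 3 most correlated genes of each, and, from fixed lists, examples among the 4 members with most UMIs. The 8 genes and the lists were chosen with earlier results of these data known, Thbs1 in neutrophil-like cells among them, which is therefore no independent support. Software was scipy 1.17.1 and numpy 2.4.6, with scanpy 1.11.5 and leidenalg 0.10.2 for clustering, under Python 3.11.15.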

Additional observations from a re-analysis of the deposited data

Results flagged for a closer look

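Over all tested genes the median log2 ratio of slie/slie to control was −0.34 in the injured and 0.44 in the uninjured limb. The share of all genes with opposite signs in the limbs was not counted. The genotype ratio over all barcodes had opposite signs in the 2 limbs for 7 of the 8 genes, all but Tnc, and for 4 of them both counting intervals lay clear of 1. For these 4 the log2 ratio of slie/slie to control was −0.53 in the injured and 1.16 in the uninjured limb for Postn, −0.35 and 1.74 for Sparc, −0.85 and 0.95 for Thbs2, and −0.16 and 0.81 for Cthrc1. Without the barcode richest in the gene in each library, the uninjured ratio of Cthrc1 turned to −0.33. That of Postn, Sparc and Thbs2 was then 1.35, 1.73 and 1.60. In the other 3 genes the log2 ratio over all barcodes was −0.94 and 0.26 for Fn1, −0.80 and 0.66 for Thbs1, and −0.11 and 1.11 for Thbs3. In the kept cells of the injured limb the log2 ratio was 0.044 for Sparc and 0.25 for Cthrc1, so their signs were no longer opposite there. Sparc also had opposite signs between genotypes in its injury ratio, at 1.44 in controls and −0.65 in slie/slie. The difference between these ratios was not tested, since each group is 1 library. The uninjured genotype ratios and the control injury ratio all use the control uninjured library, in which 5 kept cells were fibroblast-like.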

How the results depend on the processing

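No paired analysis was possible because each group is 1 library and the labels carry no replicate numbers. No replicate can be left out for the same reason. A limit of 20 cells was not run for cluster 2, which has 18 slie/slie cells. Over all barcodes the call counts of slie/slie injury, 5 higher and 0 lower, stayed within 1.5 times under every alternative run, as did the 92 levels at 100 CPM or more; the causes of the changes below were not tested. For control injury, 5 of 8 genes were higher when thinned, in place of 8, and Thbs3 turned to −0.64 (log2) with cells weighted equally and −1.65 thinned. Sparc was under the limit for control injury in kept cells and without hemoglobin genes, as given above. For the genotypes in the injured limb, 1 gene was higher when thinned, and 1 was lower with equal weights, 2 without the barcode richest in the gene (an alternative chosen after seeing the data) and 3 without the 3 deepest barcodes, in place of 0.

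For the genotypes in the uninjured limb, in place of 4 higher there were 2 in kept cells, without hemoglobin genes, or without cells under 0.5% mitochondrial UMIs. There was 1 without hemoglobin, mitochondrial and ribosomal genes, with at least 500 genes, with at most 10% mitochondrial UMIs, without called doublets, or without the 3 deepest barcodes, and 0 with equal weights or thinned. In place of 0 lower there was 1 with equal weights and 1 without doublets. Tnc turned to −0.10 with equal weights, −2.43 without doublets and −1.54 without the 3 deepest barcodes, Postn to −0.53 thinned and −0.071 without the 3 deepest, and Thbs3 to −1.14 with equal weights and −1.80 thinned. Cthrc1, which was not called, turned from 0.81 to −0.33 without the barcode richest in the gene in each library.

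In cluster 0, in place of 1 higher there were 0 at Leiden resolution 0.5, with the 8 genes kept in the clustering or with equal weights, 2 with at least 500 genes per cell and 3 at resolution 2. In cluster 2, in place of 0 there was 1 higher when thinned, with equal weights or without the 3 deepest cells, and 1 lower under each of those, at resolution 0.5 or 2, with the 8 genes kept, without the control uninjured library and without doublets. In cluster 6, in place of 1 higher there were 3 at resolution 2 or with the 8 genes kept, 2 thinned or with equal weights, and 0 with at least 500 genes, without doublets or without the 3 deepest cells, where Cthrc1 turned to −0.27. In place of 1 lower there were 2 at resolution 0.5, without doublets and with equal weights. In cluster 3, Thbs2 in controls turned to −1.97 when thinned, where no Thbs2 UMI was left in either library.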

Other observations

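Cluster 11, which stayed unnamed and is led by the nuclear RNAs Kcnq1ot1 and Meg3, had the highest Fn1 level of the 31 pairs of cluster and library, at 2730 CPM in 29 control injured cells with a median of 647 UMIs. Postn was at 4633 CPM and Thbs1 at 1034 there. In 12 slie/slie injured cells of the same cluster Fn1 was at 1082 CPM and Postn at 1731, with a median of 378 UMIs.

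A single slie/slie injured cell placed in the Schwann or glial-like cluster held 31 Postn, 19 Tnc and 15 of the library's 158 Thbs2 UMIs in kept cells. In slie/slie uninjured, 1 cell of 51346 UMIs in fibroblast-like cluster 6 held 59 Tnc, 72 Cthrc1, 29 Postn, 29 Fn1, 17 Thbs1 and 17 Thbs2 UMIs.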
